A study of Homo sapiens with 2 samples.

Results

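Lysosomal genes, GPNMB and the MiT/TFE transcription factors were examined in SF-539 cells after knockdown of FKBP9. The group held every protein-coding gene of the deposited table whose symbol was 1 of 43 chosen names (lysosomal hydrolases and their cofactors, lysosomal membrane proteins, GPNMB, MITF, TFE3 and TFEB) or began with ATP6V0 or ATP6V1, the subunits of the proton pump. All 43 names were found and the prefixes added 24 genes, giving 67 genes of 58735 in the table and of 19951 protein-coding genes. The rule used names alone, but the names were drawn up with earlier results of these data known.

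SF-539 is an established human glioblastoma (GBM) cell line. The cells were grown in DMEM with fetal bovine serum and infected with lentivirus made from the pGIPZ vector, carrying either a control hairpin (shControl) or a hairpin against FKBP9 (shFKBP9), an FK506-binding protein of the endoplasmic reticulum. Both lines were selected with puromycin as stable clones, so the vector and the drug are common to the 2 groups, and whether each line came from 1 clone or from many is not given in the sources used here. Total RNA was sequenced as 1 library per condition, so no difference below has a replicate check and no test between the conditions was possible.

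The lysosome is an acidic organelle in which hydrolases break down proteins, glycans and lipids. Its acidity is made by the vacuolar H+-ATPase, in which a V1 sector outside the membrane hydrolyses ATP and a V0 sector within the membrane carries protons. TFEB, TFE3 and MITF are related transcription factors that bind E-boxes in the promoters of lysosomal genes, and their entry into the nucleus is restrained by mTORC1 at the lysosomal surface. GPNMB is a transmembrane glycoprotein of lysosomes and melanosomes, and a well known target of these factors.

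The letters those factors bind were searched in promoters, on both strands of the 250 bases before each transcript start listed for the gene in RefSeq (GRCh38.p14). Where a gene had several starts, a motif counted when the bases before any of them held it. The promoter printed is then the first that held a motif. The motifs were the E-box CACGTG, the longer form GTCACGTG, which contains it, and the M-box TCATGTG. A promoter was in the table for 47 of the 67 members. The 20 without an entry were ARSA, ASAH1, ATP6V0D2, ATP6V0E1, ATP6V1A, ATP6V1B2, ATP6V1C1, ATP6V1E2, ATP6V1FNB, ATP6V1H, CTSB, CTSK, CTSO, CTSS, HEXA, LAMP2, MANBA, NAGLU, PSAP and SGSH. The promoters of GPNMB, LAMP1, CTSD, ATP6V1G1 and ATP6V0D1 are printed 5′ to 3′ on the strand of the gene, with TCATGTG (GPNMB) or GTCACGTG (the others), or their reverse complements, in capitals. GPNMB is shown for its log2 ratio, LAMP1 for its number of E-boxes, CTSD as a hydrolase, and ATP6V1G1 and ATP6V0D1 as subunits of the V1 and V0 sectors.
GPNMB, chr7:23246525-23246774, plus strand: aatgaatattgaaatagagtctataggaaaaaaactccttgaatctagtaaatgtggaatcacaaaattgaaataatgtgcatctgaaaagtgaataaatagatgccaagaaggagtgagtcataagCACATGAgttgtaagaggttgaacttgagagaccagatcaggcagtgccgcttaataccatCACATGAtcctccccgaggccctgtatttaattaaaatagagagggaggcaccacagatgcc
LAMP1, chr13:113296989-113297238, plus strand: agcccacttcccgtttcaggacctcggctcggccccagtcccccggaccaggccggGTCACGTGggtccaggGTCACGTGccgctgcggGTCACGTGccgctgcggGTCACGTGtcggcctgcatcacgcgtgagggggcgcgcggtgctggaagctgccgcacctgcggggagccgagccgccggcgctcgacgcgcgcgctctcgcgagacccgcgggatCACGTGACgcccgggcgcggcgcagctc
CTSD, chr11:1763928-1764177, minus strand: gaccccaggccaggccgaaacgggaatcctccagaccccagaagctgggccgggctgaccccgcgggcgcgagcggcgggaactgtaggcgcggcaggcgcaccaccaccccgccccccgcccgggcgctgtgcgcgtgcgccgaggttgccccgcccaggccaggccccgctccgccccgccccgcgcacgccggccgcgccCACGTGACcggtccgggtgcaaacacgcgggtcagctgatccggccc
ATP6V1G1, chr9:114587519-114587768, plus strand: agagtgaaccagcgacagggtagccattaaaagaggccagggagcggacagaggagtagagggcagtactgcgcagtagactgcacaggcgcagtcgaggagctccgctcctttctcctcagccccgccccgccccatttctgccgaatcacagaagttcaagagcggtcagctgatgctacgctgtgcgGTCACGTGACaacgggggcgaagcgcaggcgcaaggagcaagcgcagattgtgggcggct
ATP6V0D1, chr16:67481158-67481407, minus strand: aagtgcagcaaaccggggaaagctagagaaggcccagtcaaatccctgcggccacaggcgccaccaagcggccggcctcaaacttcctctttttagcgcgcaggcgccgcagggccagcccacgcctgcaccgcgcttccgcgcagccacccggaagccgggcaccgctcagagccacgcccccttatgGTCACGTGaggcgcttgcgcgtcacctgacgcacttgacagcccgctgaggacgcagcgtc

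GPNMB carried TCATGTG at 123 and at 62 bases before its start and no CACGTG. LAMP1 carried GTCACGTG 5 times, at 194, 178, 161, 144 and 28 bases. In CTSD it lay at 47 bases, in ATP6V0D1 at 61, and in ATP6V1G1 at 60 and, overlapping on the other strand, at 58. Over the 47 promoters CACGTG was found in 14 (29.8%), GTCACGTG in 9 (19.1%) and TCATGTG in 7 (14.9%). Over the 14896 protein-coding genes with a promoter the shares were 9.84%, 3.77% and 2.74%, and over all 27305 genes with one 7.73%, 2.66% and 3.11%. A match is a description of letters and no evidence of binding.

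RNA was quantified by the authors as FPKM, fragments of a gene scaled by its length in kilobases and by library size. Each value multiplied by the gene length was a whole multiple of 1 step per library, within a relative tolerance of 1e-06, so that the fragments behind it could be recovered. There were 18116873 fragments in shControl and 17158514 in shFKBP9, and 1 fragment per kilobase corresponded to 0.0552 and 0.0582 FPKM. FKBP9 itself had 49.8 FPKM in shControl and 4.68 in shFKBP9, a log2 ratio of -3.38 (95% interval -3.56 to -3.27). Here and below a log2 ratio is shFKBP9 over shControl with 0.1 added to both FPKM, and its interval is an exact Clopper-Pearson interval of the fragments without that addition, which covers counting error only. The labels call the cells epithelial glioma cells, and VIM, a mesenchymal and glial filament, had 277 and 295 FPKM. NES had 2.36 and 2.17 FPKM, while GFAP, OLIG2, SOX2 and S100B were under 1 FPKM in both libraries, as were the epithelial markers EPCAM, CDH1 and KRT18 (KRT8 had 1.28 and 1.09). VIM is also abundant in fibroblasts and other mesenchymal cells, so these markers do not by themselves show the labelled type.

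Of the 67 members, 57 reached 1 FPKM in at least 1 library and 56 in both. ATP6V1G2 alone passed through 1 library, with 0.978 FPKM in shControl and 1.65 in shFKBP9. The other 10 were CTSH, CTSZ, CLN3, ATP6V0A4, ATP6V0D2, ATP6V1B1, ATP6V1C2, ATP6V1G3, ATP6V1FNB and ATP6V1G2-DDX39B. The 57 summed to 2183 FPKM in shControl and 2304 in shFKBP9. PSAP, the precursor of the saposins, CD63, a tetraspanin of late endosomes and lysosomes, and ATP6V1F, a rotor subunit of the pump, held 38.1% of the members' FPKM in shControl and 38.9% in shFKBP9. The 10 most abundant members held 69.4% in each library. Their order differed at the top, where PSAP came before CD63 in shControl (315 and 308 FPKM) and after it in shFKBP9 (333 and 348 FPKM).

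**Figure D1:**
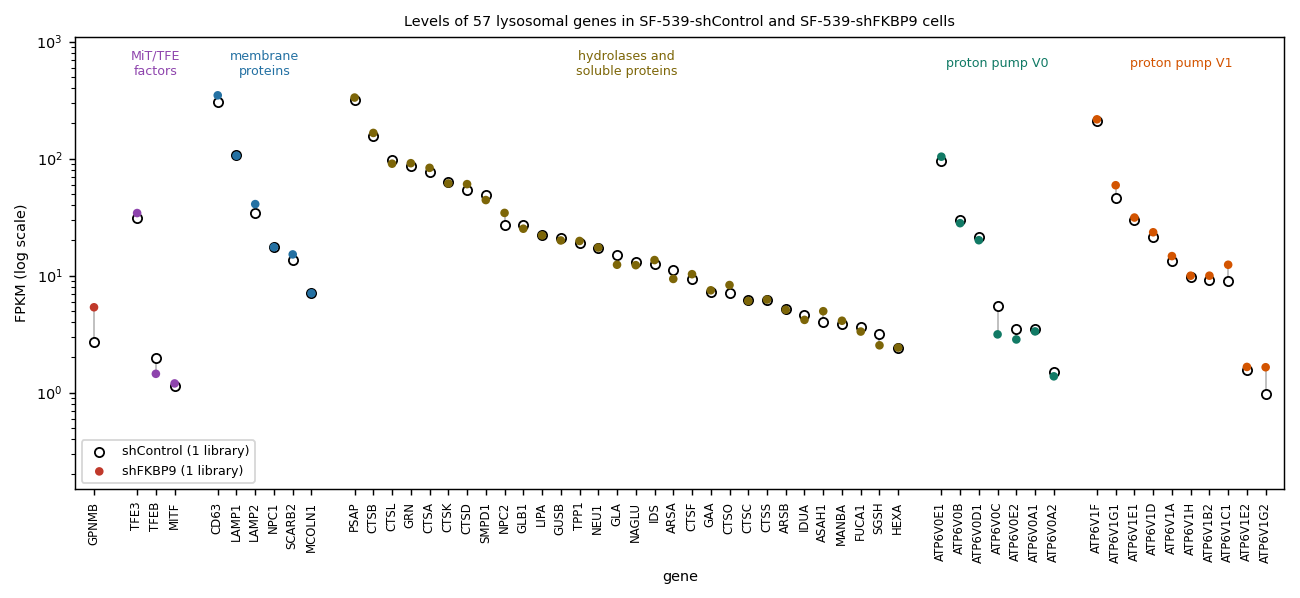
FPKM (log axis) of the 57 members with at least 1 FPKM in either library, grouped by role and ordered by level, in the shControl library (open circles) and the shFKBP9 library (filled circles, coloured by group). Each circle is 1 library, and GPNMB, ATP6V0C and ATP6V1G2 show the widest gaps between the circles.

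The members as a whole lay close to equality between the libraries. Their median log2 ratio was 0.044, with 33 higher in shFKBP9 and 24 lower, so that 57.9% were above 0 against 46.3% of the 10346 protein-coding genes at the same minimum, whose median was -0.018. After the median of protein-coding genes of like GC content was subtracted, a step described with the proton pump, the split of the members was 40 higher and 17 lower, beside 5160 and 5160 of protein-coding genes. No member passed 2-fold in either direction, the change used as a threshold in the study. Among all genes at that minimum 2.02% passed 2-fold upward and 2.19% downward, and among protein-coding genes 0.213% and 0.193%. A count of 0 among 57 genes is close to the protein-coding background.

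Past a log2 ratio of 0.32 in size, 5 members were higher (GPNMB, NPC2, ATP6V1G1, ATP6V1C1 and ATP6V1G2) and 2 were lower (TFEB and ATP6V0C), beside 5.87% and 6.94% of protein-coding genes. In an exact binomial test of the fragments of the 2 libraries (Benjamini-Hochberg adjusted p under 0.05 over 17105 genes with at least 10 fragments), which compares these libraries and not the conditions, 17 of 63 members tested were higher (27.0%) and 8 lower (12.7%). The background shares among protein-coding genes were 12.0% higher and 14.5% lower. That test reaches small differences in abundant genes, and the smallest absolute log2 ratio called was 0.078, that of GRN.

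**Figure D2:**
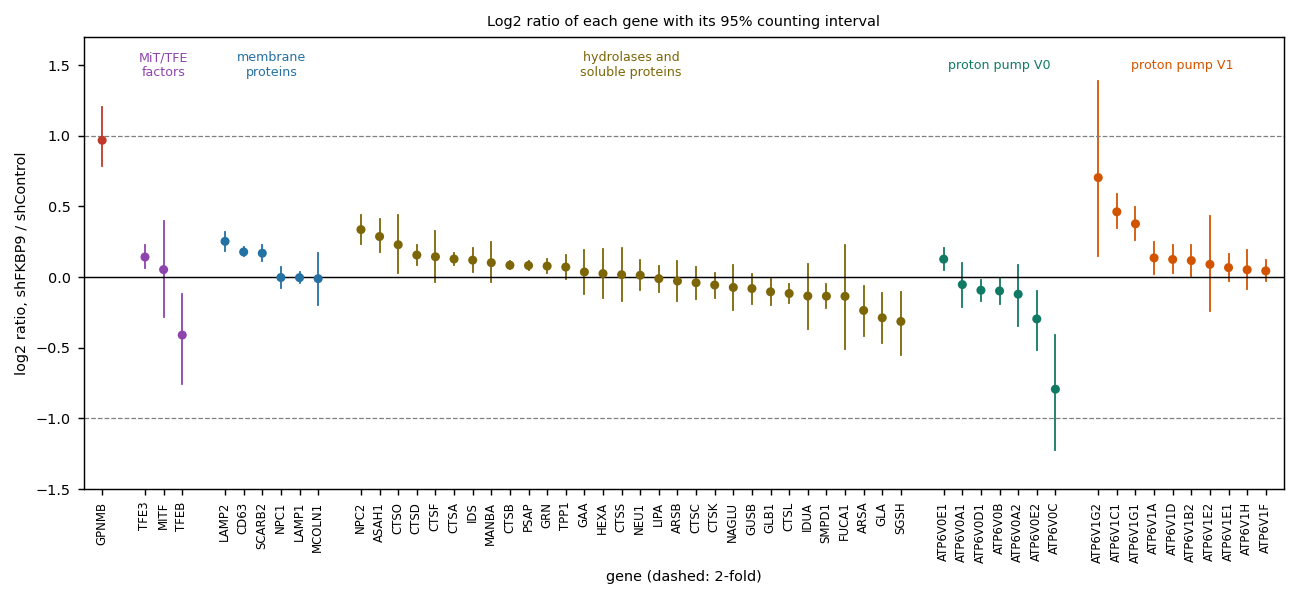
Log2 ratio (shFKBP9 over shControl) of each of the 57 members, ordered within its group, with 95% counting intervals as vertical lines and 2-fold marked by dashed lines. GPNMB lies at 0.97, just inside 2-fold, ATP6V0C at -0.79, and all 10 V1 subunits lie above 0.

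GPNMB had the highest log2 ratio of the 57 members. The gene lies on chromosome 7 of hg38 from 23235967 to 23275108, on the plus strand. The RefSeq start used above lies inside that span, as do those of CTSD, ATP6V1G1 and ATP6V0D1 in theirs. Its level was 2.70 FPKM in shControl, on 295 fragments, and 5.37 FPKM in shFKBP9, on 557 fragments. This made a log2 ratio of 0.97 (0.79 to 1.20), and the ratio of the deposited values was 1.99. With 1 FPKM added in place of 0.1 the log2 ratio was 0.79. The exact binomial test gave an adjusted p of 1.15e-20 for the 2 libraries. GPNMB was among the genes the study itself chose as upregulated from these libraries, so its direction here is not independent evidence. The study also measured GPNMB mRNA by quantitative PCR in FKBP9-depleted SF-539 cells and in another GBM line. It reports that this method showed the changes of its upregulated ER stress genes again. Those PCR measurements were not examined here.

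Among 11575 protein-coding genes on which both libraries together placed at least 50 fragments, GPNMB ranked 28 from the highest log2 ratio. The genes next to it over these 2 libraries were FGF5, a fibroblast growth factor (0.98), IL1B, an inflammatory cytokine (0.97), PLAT, the tissue plasminogen activator (0.97), and CHI3L1, a secreted chitinase-like glycoprotein (0.96). Their FPKM went from 0.433 to 0.952 for FGF5, from 0.767 to 1.60 for IL1B, from 0.901 to 1.86 for PLAT and from 9.89 to 19.3 for CHI3L1. The counting intervals of all 4 overlapped that of GPNMB, so their order is not resolved by the fragments.

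GPNMB is also abundant in macrophages, melanocytes and osteoclasts, and markers of those cells were read beside it. Of 8 macrophage markers, PTPRC, AIF1, TYROBP and C1QA had no fragment in either library, and 7 were under 1 FPKM, summing to 0.381 FPKM in shControl and 0.788 in shFKBP9. The exception was CSF1R, the receptor of colony-stimulating factor 1, with 8.30 and 9.67 FPKM, which was higher in the exact binomial test (adjusted p = 0.0140). All 5 melanocyte markers were under 1 FPKM, with a sum of 0.557 and 0.573 FPKM, and TYR had no fragment. Within that sum PMEL had 22 and 4 fragments and was lower in the exact binomial test (adjusted p = 0.00622), while MLANA had 10 and 21. Of 3 osteoclast markers, ACP5, a lysosomal acid phosphatase, had 2.04 and 3.03 FPKM and was higher in the exact binomial test (adjusted p = 0.0123). OSCAR had 10 and 4 fragments, and CALCR had none. The part of such markers in the result for GPNMB was not tested. In bulk RNA, more cells of a type and more RNA per cell cannot be told apart.

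TFE3 was by far the most abundant of the MiT/TFE factors. It had 31.1 FPKM in shControl and 34.3 in shFKBP9, a log2 ratio of 0.14 (0.06 to 0.22), and was higher in the exact test between the libraries. TFEB, regarded as the master regulator of lysosomal genes, had 1.97 FPKM (201 fragments) in shControl and 1.45 FPKM (141 fragments) in shFKBP9, a log2 ratio of -0.41 (-0.76 to -0.12), and was lower in that test (adjusted p = 0.0347). MITF, the factor of the melanocyte lineage, had 1.15 and 1.20 FPKM and a log2 ratio of 0.05 (-0.28 to 0.40). MITF was not separable from 0 at this depth. Subtraction of the GC median put MITF at -0.03, TFE3 at 0.25 and TFEB at -0.28, and that of TFEB was then smaller than its counting error.

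Genes that control the location of these factors were taken as a list outside the members, both mTORC1 with its regulators, which holds them in the cytoplasm, and calcineurin, the phosphatase that releases them. Of its 21 genes, all reached 1 FPKM, the median log2 ratio was 0.071, and 14 were higher and 7 lower. In the exact binomial test 5 were higher, the calcineurin genes PPP3CA and PPP3CB (not the third, PPP3R1, at -0.03) among them, and 3 lower, beside the 12.0% and 14.5% of protein-coding genes. The lowest were MTOR, the kinase, with 13.9 and 11.0 FPKM (log2 ratio -0.33), and TSC2, its inhibitor through RHEB, with 3.30 and 2.61 FPKM (-0.33). The highest were RRAGB, a Rag GTPase (2.92 and 3.70 FPKM, 0.33), and FNIP1, the partner of folliculin (3.65 and 4.57 FPKM, 0.32). RRAGA, another Rag GTPase, was at 0.28 and TSC1, the partner of TSC2, at -0.03.

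Before any subtraction of the GC median, the membrane proteins divided into 3 that were higher and 3 at equality. LAMP2, a structural glycoprotein of the lysosomal membrane needed for autophagy, had 34.3 FPKM in shControl and 40.9 in shFKBP9, with a log2 ratio of 0.25 (0.19 to 0.32). CD63 had 308 and 348 FPKM (0.18, interval 0.15 to 0.21), and SCARB2, which carries glucocerebrosidase to lysosomes, had 13.5 and 15.2 FPKM (0.17, interval 0.11 to 0.23). These 3 were higher in the exact test between the libraries and none was lower, beside 12.0% and 14.5% of protein-coding genes.

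LAMP1, whose promoter has the 5 E-boxes shown above, had 107 and 106 FPKM, and its log2 ratio was -0.004 (-0.043 to 0.034). NPC1, which exports cholesterol from lysosomes, had 17.5 FPKM in both libraries, and MCOLN1, a cation channel of lysosomes, had 7.12 and 7.07 FPKM. The log2 ratios of these last 3 lay within 0.02 of 0, and scaling by the median ratio of protein-coding genes turned their sign, to 6 higher and none lower. The median of the 6 was 0.083. LAMP1 and LAMP2, closely related in structure, had intervals of the log2 ratio that did not overlap, but with the GC median subtracted they stood together, at 0.081 and 0.084. That subtraction put all 6 above 0, with MCOLN1 at 0.115, NPC1 at 0.056, SCARB2 at 0.124 and CD63 at 0.266.

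The hydrolases and soluble proteins showed no common direction. Of 32 genes, 30 reached 1 FPKM, 16 were higher and 14 lower, and their median log2 ratio was 0.015. The range was narrow, from -0.31 for SGSH to 0.34 for NPC2. Their summed FPKM was 1148 in shControl and 1183 in shFKBP9. In the exact binomial test 8 were higher (CTSA, CTSB, CTSD, ASAH1, GRN, NPC2, PSAP and IDS) and 5 were lower (CTSL, GLA, SMPD1, ARSA and SGSH), beside 12.0% and 14.5% of protein-coding genes. As TPM the split was 14 higher and 16 lower, so no direction is given for the group.

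Among the cathepsins, the lysosomal proteases, with TPP1, 10 of 12 reached 1 FPKM and 7 of these were higher, with a median log2 ratio of 0.077. The aspartic protease CTSD had 54.4 FPKM in shControl, 60.6 in shFKBP9 and a log2 ratio of 0.16 (interval 0.09 to 0.23), and CTSA, the protective protein of neuraminidase, had 76.4 and 83.5 FPKM (0.13). CTSB, the most abundant cathepsin, had 157 and 166 FPKM (0.084). CTSL, a cysteine protease like CTSB, stood on the other side, with 98.2 and 90.6 FPKM and a log2 ratio of -0.12 (-0.18 to -0.05), which was -0.057, within its counting error, after subtraction of the GC median.

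The other cysteine cathepsins CTSK (63.8 and 61.4 FPKM), CTSC (6.25 and 6.08), CTSS (6.18 and 6.25), CTSF (9.34 and 10.3) and CTSO (7.09 and 8.32), and the tripeptidyl peptidase TPP1 (18.9 and 19.8), were not called. The order of the 10 levels was the same in both libraries except that CTSC and CTSS, the 2 lowest, exchanged places. Exons of other genes cover 48.0% of the exon bases of CTSD and 21.5% of those of CTSA, and whether the authors' counting used the strand is not given in the sources used here.

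All 10 glycosidases reached 1 FPKM, with a median of -0.077 and 4 higher. GLA, the alpha-galactosidase lacking in Fabry disease, had 15.1 FPKM in shControl, 12.4 in shFKBP9 and a log2 ratio of -0.29 (interval -0.46 to -0.12), and was the glycosidase called in the exact binomial test. GLB1, the beta-galactosidase, had 27.1 and 25.2 FPKM (-0.10). GUSB, the beta-glucuronidase, had 1526 and 1368 fragments. The others were NEU1 (17.3 and 17.4 FPKM), NAGLU (13.0 and 12.3), GAA (7.32 and 7.50), IDUA (4.61 and 4.19), MANBA (3.83 and 4.12), FUCA1 (3.67 and 3.33) and HEXA (2.39 and 2.43 FPKM). The log2 ratios of GUSB and of these 7 lay between -0.14 and 0.10, and their intervals included 0. After subtraction of the GC median 6 of the 10 glycosidases were higher.

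The 4 sulfatases, which remove sulfate from glycosaminoglycans and sulfatides, showed a median log2 ratio of -0.13, 3 being lower. After subtraction of the GC median the value was -0.064, and 2 were lower. SGSH had 3.18 FPKM in shControl, 2.54 in shFKBP9 and a log2 ratio of -0.31 (interval -0.55 to -0.10), and ARSA had 11.1 and 9.38 FPKM (-0.24, interval -0.42 to -0.06). ARSB had 5.21 and 5.11 FPKM, with an interval that included 0. IDS was higher, with 12.5 and 13.6 FPKM (0.12), but 75.9% of its exon bases are shared with exons of other genes. After the subtraction SGSH stood at -0.20, ARSA at -0.13 and IDS at 0.084, each within its counting error.

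The lipid enzymes stood on both sides of 0. ASAH1, the acid ceramidase, had 4.05 FPKM in shControl, 4.97 in shFKBP9 and a log2 ratio of 0.29 (interval 0.18 to 0.41). SMPD1, the acid sphingomyelinase that makes ceramide, had 48.7 and 44.3 FPKM (-0.14, interval -0.22 to -0.05). LIPA, the acid lipase, had 22.3 and 22.1 FPKM. The intervals of ASAH1 and SMPD1 lay on opposite sides of 0, but after subtraction of the GC median the values were 0.18 and -0.03, and that of SMPD1 was then smaller than its counting error.

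The 3 other soluble proteins were all higher. NPC2, which binds cholesterol and hands it to NPC1, had 27.2 FPKM (1355 fragments) in shControl and 34.4 FPKM (1623 fragments) in shFKBP9, a log2 ratio of 0.34 (0.23 to 0.44). PSAP had 315 and 333 FPKM (0.082), and GRN, the progranulin precursor, had 86.6 and 91.5 FPKM (0.078). NPC2 and NPC1, which act in succession, had intervals of the log2 ratio that did not overlap.

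Hydrolases that were no members, 18 genes chosen for their place in the same pathway, lay mostly below 0. Of the 15 at 1 FPKM, 2 were higher and 13 lower, with a median of -0.059, and 3 were lower in the exact binomial test and none higher, beside 14.5% and 12.0% of protein-coding genes. The 2 higher were HGSNAT, an acetyltransferase of heparan sulfate breakdown, with 9.82 FPKM in shControl and 10.0 in shFKBP9, and SUMF1, which activates sulfatases, with 9.46 and 9.63 FPKM. SIAE, a sialic acid esterase, was under the minimum, with 0.482 and 0.501 FPKM. After subtraction of the GC median the split was 6 higher and 9 lower.

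The 14 genes of mannose 6-phosphate tagging and sorting, which bring hydrolases to the lysosome, had 4 higher and 10 lower and a median of -0.11. In the exact binomial test 1 was higher and 5 were lower, beside 12.0% and 14.5% of protein-coding genes, and the median was -0.059 after subtraction of the GC median. GGA1, an adaptor at the Golgi, had 6.27 FPKM in shControl and 5.15 in shFKBP9 (log2 ratio -0.28), and AP1B1, a subunit of the AP-1 coat adaptor, had 21.6 and 18.5 FPKM (-0.22). GNPTG, a subunit of the tagging enzyme, had 8.70 and 9.83 FPKM (0.17), and AP1S1, another AP-1 subunit, had 112 and 121 FPKM (0.11). Exons of other genes cover 50.6% of the exon bases of GNPTG. Subunits of 1 adaptor were therefore on both sides of 0.

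The sectors of the proton pump differed in their median log2 ratio, but the direction of V0 was lost in sums of FPKM and with subtraction of the GC median (4 higher and 3 lower). Of 9 V0 genes, 7 reached 1 FPKM, 1 was higher and 6 lower, and the median log2 ratio was -0.098. Of 13 V1 genes, 10 reached 1 FPKM, all 10 were higher, and the median was 0.12. Without ATP6V1G2, which reached 1 FPKM in shFKBP9 alone, 9 of 9 V1 genes were higher. In sums of FPKM the V0 genes had 161 in shControl and 163 in shFKBP9, since ATP6V0E1 made up most of the sum, and the V1 genes had 351 and 382. The share of protein-coding genes above 0 was 46.3%.

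In V0, ATP6V0C, the proteolipid that forms the proton-carrying ring, had the lowest log2 ratio of the 57 members. It had 5.53 FPKM in shControl, from 150 fragments, and 3.15 FPKM in shFKBP9, from 81 fragments, with a log2 ratio of -0.79 (-1.22 to -0.41) and an adjusted p of 4.44e-04 in the exact test between the libraries. Exons of other genes cover 76.3% of its exon bases. With the fragments of its 4 pseudogenes added (8 in shControl and 3 in shFKBP9) the log2 ratio was -0.82.

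ATP6V0E2, a small e subunit, had 3.52 and 2.85 FPKM (log2 ratio -0.30, interval -0.52 to -0.10) and was the other V0 gene that was lower in that test, with -0.17, within its counting error, after subtraction of the GC median. ATP6V0B, a further ring proteolipid, had 30.1 and 28.1 FPKM (-0.098), and ATP6V0D1, which joins the ring to the rotor, had 21.4 and 20.1 FPKM (-0.093). The large a subunits ATP6V0A1 (3.47 and 3.34 FPKM) and ATP6V0A2 (1.51 and 1.38 FPKM) had intervals that included 0. ATP6V0E1, the major e subunit, had 94.9 and 104 FPKM and was higher, with a log2 ratio of 0.13 (0.05 to 0.20).

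In V1, the highest log2 ratios belonged to stalk subunits. ATP6V1C1, the C subunit that clamps V1 onto V0, had 954 fragments in shControl and 1250 in shFKBP9 (12.4 FPKM), a log2 ratio of 0.46 (0.34 to 0.59). ATP6V1G1, a G subunit of the peripheral stalks, had 45.7 FPKM (1079 fragments) and 59.3 FPKM (1329 fragments), a log2 ratio of 0.38 (0.26 to 0.50). Both were higher in the exact test between the libraries, with adjusted p values of 2.23e-12 and 5.35e-09. ATP6V1G2, the G subunit known from neurons, had 38 and 61 fragments, a log2 ratio of 0.70 (0.15 to 1.38) and an adjusted p of 0.0585 in that exact test.

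The catalytic subunit ATP6V1A had 13.3 FPKM in shControl and 14.7 in shFKBP9 (log2 ratio 0.14), and its partner ATP6V1B2 had 9.23 and 10.0 FPKM (0.12). The rotor subunits ATP6V1D (21.5 and 23.5 FPKM, 0.13) and ATP6V1F (211 and 217 FPKM, 0.044), the stalk subunits ATP6V1E1 (30.0 and 31.4 FPKM, 0.067) and ATP6V1E2 (1.56 and 1.66 FPKM, 0.09), and the regulatory ATP6V1H (9.65 and 10.0 FPKM, 0.052) were also above 0. None of these 7 was called in the exact binomial test, and the intervals of ATP6V1A, ATP6V1B2 and ATP6V1D alone among them lay above 0. Without ATP6V1G2, the log2 ratios ran from 0.044 to 0.46 in V1, and those of V0 ran from -0.79 to 0.13.

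The base composition of the transcripts moved with these ratios. Over 10329 expressed protein-coding genes the log2 ratio was lower the higher the GC content of the canonical transcript (Pearson r = -0.37, Spearman rho = -0.45 across genes, which share the 2 libraries and are not replicates). From the lowest to the highest of 20 GC bins the median log2 ratio went from 0.17 to -0.13. The V0 genes had a median GC content of 57.5% and the V1 genes of 45.0%. With the median of its own bin subtracted from each gene, the median of the V0 genes was 0.005, with 4 higher and 3 lower, and that of the V1 genes was 0.14, with 10 higher.

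ATP6V0C then stood at -0.67, ATP6V1C1 at 0.36, ATP6V1G1 at 0.27 and GPNMB at 0.95. Within their counting error stood the V1 subunits ATP6V1A (0.032), ATP6V1D (0.042), ATP6V1H (0.038), ATP6V1E1 (0.091) and ATP6V1E2 (0.163). The direction of V0 as a sector therefore was lost with the GC subtraction. All 10 V1 genes kept their sign, though not each of them beyond its counting error. The part of library composition in the difference between the sectors was not tested beyond this.

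Where a subunit has several genes, the same gene led in both libraries, per length. TCIRG1, the a subunit of osteoclasts and immune cells and no member by its symbol, held 90.2% of the FPKM of the 4 a subunit genes in shControl and 89.3% in shFKBP9. Its level was 45.7 and 39.6 FPKM, and its log2 ratio was -0.21 (-0.28 to -0.14), or -0.079 with the GC median subtracted. The a subunit family as a whole had 50.6 and 44.3 FPKM. Of the e subunits ATP6V0E1 held 96.4% and 97.3%, and of the d subunits ATP6V0D1 held 99.0% and 99.4%.

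In V1, ATP6V1B2 held 98.3% and 99.1% of its family, ATP6V1C1 95.6% and 97.3%, and ATP6V1G1 97.4% and 97.3%. The minor E gene, ATP6V1E2, held 4.94% and 5.03%. Several isoforms known from kidney, bone or other special tissues were near 0, unlike TCIRG1 and ATP6V1G2. ATP6V0A4 had 0 and 2 fragments, ATP6V0D2 12 and 6, ATP6V1B1 8 and 4, ATP6V1C2 26 and 21, and ATP6V1G3 3 and 0. No difference between the libraries was detectable for these at this depth.

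Of the 10 assembly and accessory genes of the pump, TCIRG1 included, 9 reached 1 FPKM, with 6 higher, 3 lower and a median of 0.11, which was 0.034 with the GC median subtracted. ATP6AP2, an accessory membrane protein also known as the prorenin receptor, had 11.9 FPKM in shControl and 13.8 in shFKBP9 (log2 ratio 0.21) and was higher in the exact binomial test, but stood at 0.076, within its counting error, with the GC median subtracted. RNASEK, a small membrane component of V0, had 1.33 and 1.60 FPKM from 43 and 49 fragments (0.25), and CCDC115, an assembly factor, had 6.34 and 5.93 FPKM (-0.095). Exons of other genes cover 43.3% of the exon bases of RNASEK. Apart from TCIRG1, the accessory genes thus added no lower call.

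The remaining members were under 1 FPKM in both libraries. CTSH, an aminopeptidase, had 7 and 18 fragments, CTSZ, a carboxypeptidase, had 2 and 6, and CLN3, a lysosomal membrane protein, had 13 and 17. ATP6V1FNB and ATP6V1G2-DDX39B share the prefix but are no subunits. The first is a neighbour of ATP6V1F with 24 and 47 fragments (0.340 and 0.702 FPKM), was higher in the exact binomial test (adjusted p = 0.0242) and shares 48.9% of its exon bases with other genes. The second, a readthrough whose exons are all shared, had 0 and 1.

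The promoter motifs were last set beside the ratios, as a description with no test. Of the 47 members with a promoter, 39 reached 1 FPKM. The 9 with GTCACGTG were ARSB, ATP6V0B, ATP6V0D1, ATP6V1G1, CTSA, CTSD, GAA, LAMP1 and MCOLN1, and they had a median log2 ratio of -0.004, against 0.005 for the 30 without it. The 13 with CACGTG in any form had a median of 0.013, with 7 higher, against -0.007 for the 26 without it. The 9 with GTCACGTG ranged from -0.098 (ATP6V0B) to 0.38 (ATP6V1G1).

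The 7 with TCATGTG were GPNMB, CTSA, CD63, GRN, SCARB2, TPP1 and ATP6V0C, and 6 of these were higher, with a median of 0.13 against -0.011 for the 32 without it. They held both ends of the range of the members, GPNMB at 0.97 and ATP6V0C at -0.79. Among all expressed protein-coding genes with a promoter, the 166 with TCATGTG had a median of 0.023, with 90 higher, and the 8137 without it -0.021, and the 428 with GTCACGTG had a median of 0.008.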

How the data were processed

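1 RNA-seq library of the control line and 1 of the FKBP9 knockdown line were analysed. Libraries were made from total RNA with a NEBNext Ultra kit, and sequencing was performed for the authors by a company. According to the submitters' processing notes the tools were HISAT2 2.0.5, featureCounts 1.5.0-p3 and edgeR, with build hg38. The values deposited by the authors are FPKM per gene. Fragments were recovered from FPKM and gene length.

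Log2 ratios used FPKM + 0.1, a minimum of 1 FPKM in either library and a threshold of 2-fold. Clopper-Pearson intervals (95%) and exact binomial tests (two-sided, at least 10 fragments, Benjamini-Hochberg) used the fragments. GC content and exon overlap came from GENCODE 44, and promoters from RefSeq. Members and gene lists were chosen with earlier results of these data known. Named were all members, FKBP9, marker genes, the 2 neighbours of GPNMB on either side by rank, and the 2 highest and 2 lowest genes of each pathway list. SUMF1, RRAGA, TSC1, PPP3CA, PPP3CB and PPP3R1 were named after their values were seen. The 2 lowest of the other hydrolases are not reported here. Alternatives were other additions to FPKM, median-ratio scaling, TPM, other minimums and folds, pseudogene sums, summed FPKM, shares of fragments, other settings of the binomial test and GC subtraction. Calculations were tested on simulated data. The software was scipy 1.17.1, numpy 2.4.6, matplotlib 3.10.9 and pandas 2.3.3 under Python 3.11.15.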

Additional observations from a re-analysis of the deposited data

How the results depend on the processing

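With 1 library per condition no replicate could be left out, and no paired analysis was possible because the labels give no replicate numbers. Adding 1 FPKM in place of 0.1 moved the log2 ratio of GPNMB to 0.79 and that of FKBP9 to -3.16. Past a log2 ratio of 0.32, 5 members were higher and 2 lower. Without a minimum 1 member was lower past 2-fold, ATP6V1G3, with 3 and 0 fragments. The median of the V0 genes went from -0.098 to 0.019 as a ratio of summed FPKM and to 0.005 with the GC medians subtracted, an alternative chosen after the data were seen. As shares of fragments, which favour long genes, the leading isoforms held, in shControl and shFKBP9, 77.3% and 75.7% (TCIRG1), 86.6% and 89.7% (ATP6V0E1), 99.6% and 99.8% (ATP6V0D1), 99.4% and 99.7% (ATP6V1B2), 97.3% and 98.3% (ATP6V1C1), and 92.1% and 92.0% (ATP6V1E1), and ATP6V1G1 held 95.6% in shFKBP9. The other 98 values stayed within counting intervals or, as counts, within 1.5 times of the reported one. For group medians the bounds were the medians of the interval ends of the genes, which make no counting interval of the median itself. Among the 98 were the members called in the exact binomial test, 19 to 23 higher and 7 to 11 lower over 3 other settings. Within those bounds the median of the hydrolases and soluble proteins turned to -0.003 as TPM and that of the MiT/TFE factors to -0.03 with GC subtraction. The 2 alternatives above turned that of V0. Differences of low genes such as ATP6V1G2, CTSH and CTSZ are limited by their fragments.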
